A study of Mus musculus with 9 samples.

Results

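The genes described here encode the desmosome, the junction that rivets keratinocytes to each other. They are the desmogleins Dsg1a, Dsg1b, Dsg2 and Dsg3, the desmocollins Dsc1, Dsc2 and Dsc3, the plaque proteins plakophilin 1 (Pkp1) and plakoglobin (Jup), and desmoplakin (Dsp). A gene was taken as a member where the platform annotation gave a probe set that symbol and no other. By this rule 8 of the 10 genes were found among 19938 genes with such a probe set, each with 1 probe set. The only probe set that names Dsg1a names Dsg1b and Dsg1c as well, and Dsc1 was not analysed here.

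Expression was measured in total RNA of whole ear skin from female C57BL/6 mice aged 7 to 9 weeks, on Affymetrix Mouse Gene 1.0 ST arrays, with 3 arrays per group. One group received anisomycin, an inhibitor of protein synthesis that also activates stress kinases, at 2 mg/ml in 99.5% ethanol, with 10 µl put on each side of the ear each day for 5 days. Another received 10 mg of a 5% cream of imiquimod, a Toll-like receptor 7 ligand used to provoke psoriasis-like dermatitis, spread over both sides of the ear each day for 5 days. The third group is labelled vehicle, and neither its composition nor its duration is given in the sources used here, so ethanol and cream base are not controlled separately. The labels do not say that the arrays of a group came from separate animals. If they did not, the p-values below measure only the spread between these samples.

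In a desmosome the extracellular parts of desmogleins and desmocollins bind across the gap between neighbouring cells. Their tails bind plakoglobin and plakophilins, and desmoplakin ties this plaque to keratin filaments. In epidermis Dsg3 and Dsc3 are typical of the deeper layers and Dsg1 and Dsc1 of the upper layers, while Dsg2 and Dsc2 are best known from simple epithelia and heart muscle.

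Both treatments shifted the cadherins of the desmosome in different directions, while the plaque genes moved little. Dsc2 rose 17.6-fold with anisomycin and 4.71-fold with imiquimod, and Dsg3 rose 4.76-fold and 3.38-fold. The vehicle values of Dsc2 were dim, below the array medians, so the size of its rise is uncertain. Dsg1b rose less, Dsg2 fell with both treatments, and Dsc3 passed the test in neither comparison. The probe set shared by Dsg1a, Dsg1b and Dsg1c was called with neither treatment. Pkp1, Jup and Dsp were higher than vehicle by 1.17-fold to 1.39-fold. A gene was called where limma's moderated test gave a Benjamini-Hochberg adjusted p under 0.05 over all 19938 genes. With anisomycin 7 of the 8 members were called, 6 higher and 1 lower, where 45.6% of all genes tested were called, 22.3% higher and 23.3% lower. With imiquimod the counts were again 7, 6 and 1, where 42.7% of all genes were called, 20.4% higher and 22.4% lower. The same 6 members were higher with both treatments, as were 16.0% of all genes. Anisomycin and vehicle arrays were fully apart for 7 of 8 members, 6 with all arrays higher and 1 with all lower, beside 51.3% of all genes (24.9% higher, 26.4% lower). With imiquimod 7 members were fully apart, again 6 and 1, beside 51.8% (24.4% and 27.4%). The median difference of the 8 members was 0.47 on the log2 scale with anisomycin and 0.45 with imiquimod, beside -0.0097 and -0.026 over all genes tested. The comparisons share their vehicle arrays.

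**Figure D1:**
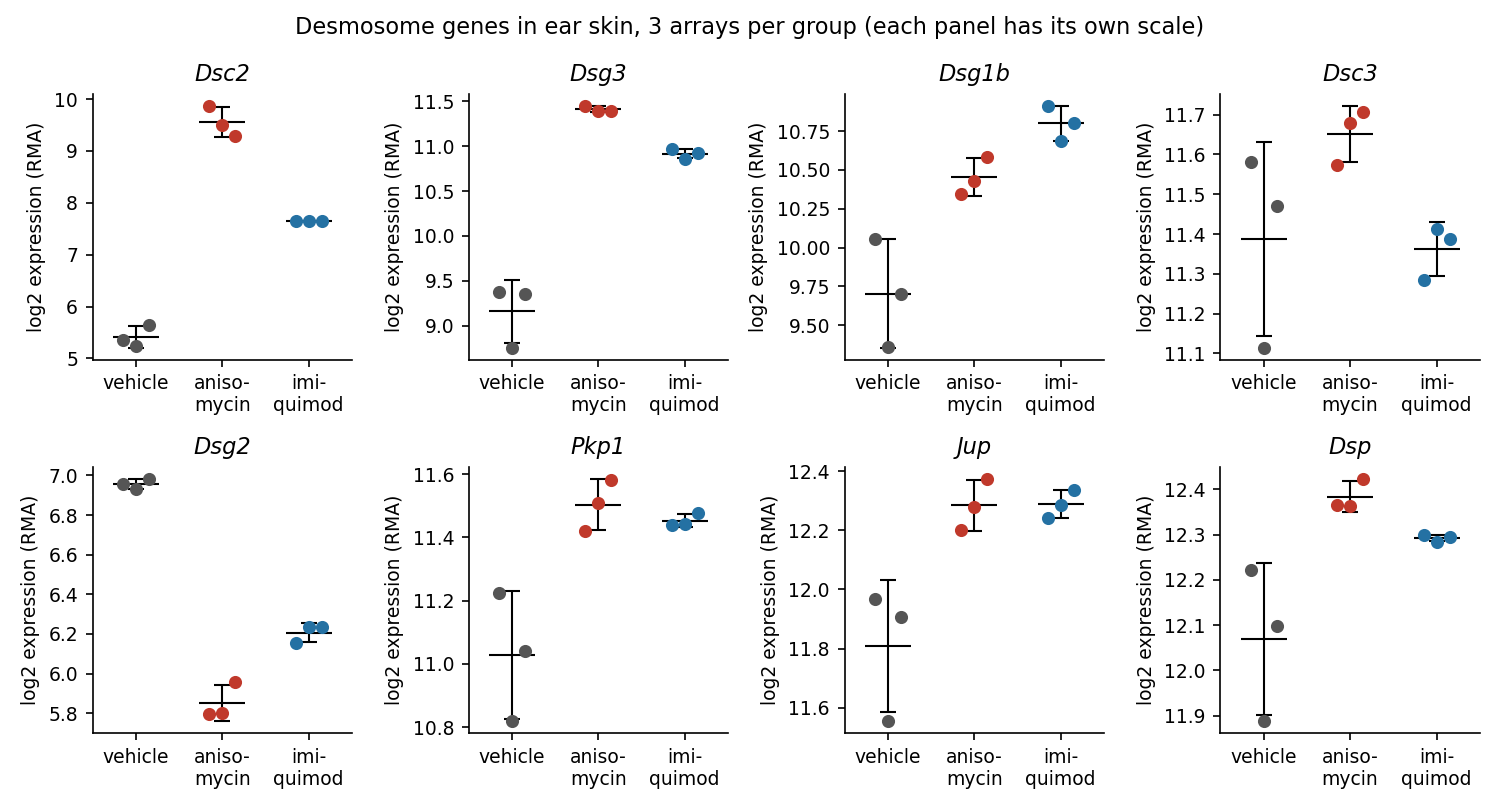
Log2 expression (RMA values) of the 8 desmosome genes in each array, with the group mean (long bar) and SD (whiskers), n = 3 arrays per group, each panel on its own scale. Dsc2 and Dsg3 stand highest with anisomycin, Dsg2 stands lowest there, and vehicle replicate 2 is the lowest vehicle array in all 8 panels.

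Dsc2, a desmocollin, showed the largest difference of the members. Its log2 expression was 5.36, 5.25 and 5.65 in the vehicle arrays, 9.87, 9.51 and 9.29 with anisomycin, and 7.65 in each of the imiquimod arrays. The groups did not overlap, and the imiquimod arrays lay between the others. The vehicle values lay below the array medians of 6.01 to 6.10. Signal over background was not tested, so the size of the fold is uncertain. The difference from vehicle was 4.14 on the log2 scale with anisomycin (SE 0.14, adjusted p = 7.45e-08) and 2.23 with imiquimod (SE 0.14, adjusted p = 3.98e-06). Between the treatments Dsc2 was 3.75-fold higher with anisomycin (95% confidence interval 2.99 to 4.69, adjusted p = 8.37e-05). The 3 imiquimod values were equal to the last deposited digit, which held for 350 of 19938 genes in that group, for 301 with anisomycin and for 168 in vehicle. The SD of 0 in that group is therefore not a measure of the spread between mice. The test rests on the spread over all 3 groups, which this 0 lowers. With only the anisomycin and vehicle groups fitted, the adjusted p of limma's test for anisomycin was 1.43e-05.

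Dsc3, the main desmocollin of the deeper epidermis, behaved differently from its neighbour. It read 11.58, 11.11 and 11.47 in vehicle arrays, 11.57, 11.68 and 11.71 with anisomycin, and 11.28, 11.41 and 11.39 with imiquimod. Both treated groups overlapped vehicle. The difference from vehicle was 0.26 with anisomycin (95% confidence interval 0.02 to 0.51, adjusted p = 0.0748). It was 0.13 without vehicle replicate 2 and 0.36 without replicate 1, where it was called (adjusted p = 0.0225), as it was with median centring and array weights, and its adjusted p over all alternatives ran from 0.0225 to 0.413. The difference was -0.03 with imiquimod (-0.27 to 0.22, adjusted p = 0.879). With cyclic loess normalization it was called lower with imiquimod, at -0.25 (adjusted p = 0.0300), and over all alternatives that adjusted p ran from 0.000258 to 0.953. The anisomycin arrays all lay above the imiquimod arrays, by 0.29 on average, with an adjusted p of 0.0954. This became a call under 6 of 21 alternatives, among them leaving out vehicle replicate 2 (adjusted p = 0.0107), and its adjusted p ran from 0.00171 to 0.248. Within each array, the difference between Dsc2 and Dsc3 moved by 3.88 ± 0.36 (SD, n = 3) from its vehicle mean with anisomycin and by 2.26 ± 0.07 with imiquimod, against an SD of 0.22 in vehicle. The SD with imiquimod is that of Dsc3 alone, because the 3 Dsc2 values there were equal. These pairs of genes were chosen after their values were seen, and no test was made on them.

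Dsg3, the desmoglein typical of basal and spinous keratinocytes and the target of autoantibodies in pemphigus vulgaris, was the next largest. Its log2 expression was 9.38, 8.76 and 9.35 in vehicle arrays, 11.45, 11.39 and 11.39 with anisomycin, and 10.97, 10.86 and 10.92 with imiquimod. No 2 groups overlapped. It rose by 2.25 with anisomycin (SE 0.14, adjusted p = 2.36e-06) and by 1.76 with imiquimod (SE 0.14, adjusted p = 1.4e-05). The treatments differed by 0.49 (95% confidence interval 0.17 to 0.82, adjusted p = 0.0375), but this call ended without any 1 of the 6 treated arrays, with an adjusted p of up to 0.117. Over all alternatives that adjusted p ran from 0.000335 to 0.117.

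Dsg1b is a mouse copy of desmoglein 1, the desmoglein of the upper epidermis. It read 10.05, 9.36 and 9.70 in vehicle arrays, 10.34, 10.43 and 10.59 with anisomycin, and 10.91, 10.69 and 10.80 with imiquimod. All treated arrays lay above all vehicle arrays, and the imiquimod arrays above the anisomycin arrays. The rise was 0.75 with anisomycin (SE 0.15, adjusted p = 0.00285) and 1.10 with imiquimod (SE 0.15, adjusted p = 0.000327). The difference between treatments, -0.35, had a 95% confidence interval of -0.69 to -0.0039 and was not called (adjusted p = 0.153). Leaving out vehicle replicate 2 made it a call (adjusted p = 0.0475), and its adjusted p over all alternatives ran from 0.00662 to 0.352.

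The probe set shared by Dsg1a, Dsg1b and Dsg1c did not follow the one for Dsg1b. It read 11.83, 11.33 and 11.61 in vehicle arrays, 11.17, 11.34 and 11.53 with anisomycin, and 11.56, 11.64 and 11.61 with imiquimod. Vehicle overlapped both treated groups, while all anisomycin arrays lay below all imiquimod arrays. Its difference from vehicle was -0.24 with anisomycin (SE 0.13, adjusted p = 0.186) and 0.01 with imiquimod (SE 0.13, adjusted p = 0.960). Anisomycin minus imiquimod was -0.26 (SE 0.13, adjusted p = 0.260). These p-values were adjusted over all 35556 rows of the table. The 3 Dsg1 genes are close copies whose probes can share signal, so the values of any 1 of them are uncertain.

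Dsg2, the desmoglein shared by simple epithelia, heart and hair follicles, was the only member called lower. Its values were 6.95, 6.93 and 6.98 in vehicle arrays, 5.80, 5.80 and 5.96 with anisomycin, and 6.15, 6.23 and 6.23 with imiquimod. The groups were fully apart, with anisomycin lowest. The anisomycin values lay below the array medians of 6.01 to 6.10, and signal over background was not tested. Of the 3 imiquimod values 2 were equal to the last deposited digit. It fell by 1.10 with anisomycin (SE 0.06, adjusted p = 7.71e-07), which is 2.15-fold lower, and by 0.75 with imiquimod (SE 0.06, adjusted p = 1.02e-05). Anisomycin arrays lay 1.28-fold below imiquimod arrays (95% confidence interval 1.17 to 1.40, adjusted p = 0.00322). Hair follicle markers were lower on average in the same arrays. Of 10 measured, 7 were lower and 1 higher with anisomycin, beside 23.3% and 22.3% of all genes. With imiquimod 3 were lower and 1 higher, beside 22.4% and 20.4%, so this count was near the share over all genes. The mean level of these markers was 6.82 to 6.98 in vehicle arrays, 6.17 to 6.41 with anisomycin and 6.18 to 6.64 with imiquimod. Their part in the fall of Dsg2 was not tested. In whole-tissue RNA, fewer cells of a type and less RNA per cell cannot be told apart.

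**Figure D2:**
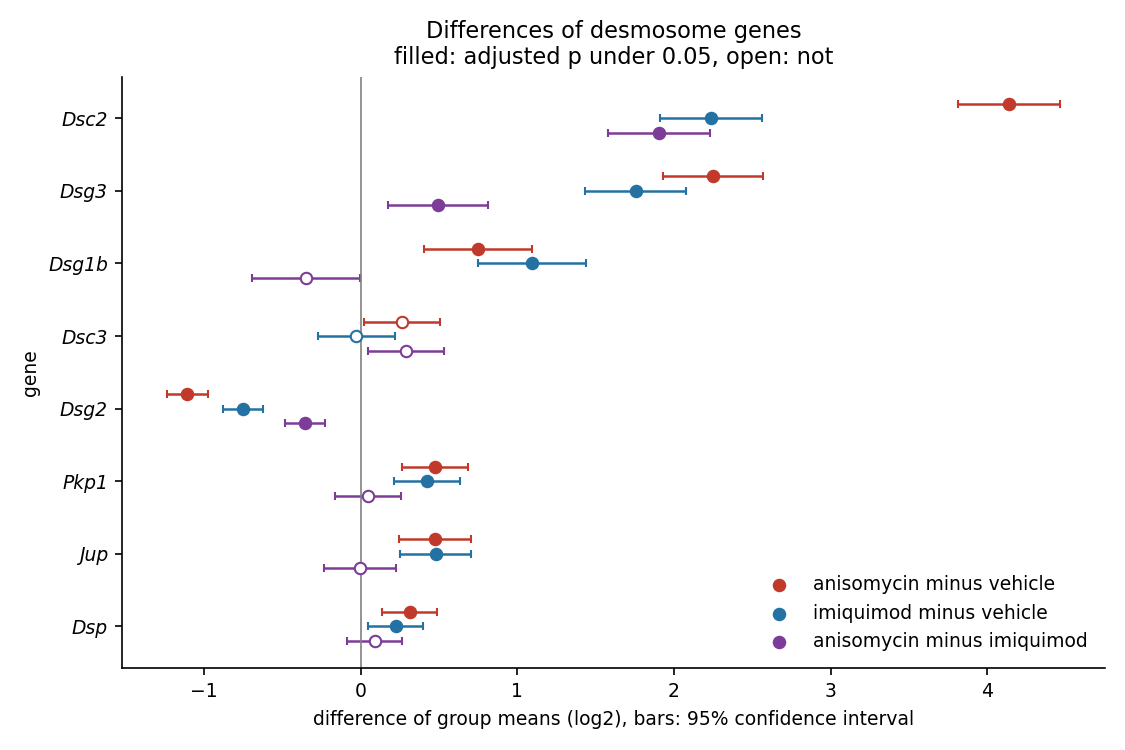
Differences of group means on the log2 scale for the 8 desmosome genes, with 95% confidence intervals from limma, n = 3 arrays per group. Filled points have an adjusted p under 0.05. Dsc2 at 4.14 and Dsg2 at -1.10 mark the ends of the range for anisomycin, and the plaque genes lie between 0.22 and 0.48 for both treatments.

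The plaque genes rose by small amounts. Plakophilin 1, an armadillo protein that strengthens desmosomes by clustering desmoplakin, read 11.23, 10.82 and 11.04 in vehicle arrays, 11.42, 11.51 and 11.58 with anisomycin, and 11.44, 11.44 and 11.48 with imiquimod. All treated arrays of Pkp1 exceeded all vehicle arrays. The rises were 0.47 (SE 0.09, adjusted p = 0.00229) and 0.42 (SE 0.09, adjusted p = 0.00486). Plakoglobin, encoded by Jup and shared with adherens junctions, read 11.97, 11.55 and 11.91 in vehicle arrays, 12.20, 12.28 and 12.37 with anisomycin, and 12.24, 12.29 and 12.34 with imiquimod. Again no treated array of Jup fell within the vehicle range. The rises of Jup were 0.47 (SE 0.10, adjusted p = 0.00369) and 0.48 (SE 0.10, adjusted p = 0.00395).

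Desmoplakin, the link to keratin filaments, read 12.22, 11.89 and 12.10 in vehicle arrays, 12.36, 12.36 and 12.42 with anisomycin, and 12.30, 12.28 and 12.29 with imiquimod. The treated arrays of Dsp all lay above vehicle, the lowest by little. Its rise was 0.31 with anisomycin (SE 0.08, adjusted p = 0.00813) and 0.22 with imiquimod (SE 0.08, adjusted p = 0.0429). With cyclic loess normalization the rise with anisomycin was 0.14 and no longer called (adjusted p = 0.0524). Its adjusted p over all alternatives ran from 0.00202 to 0.0532, the highest for a difference of -0.16 with centring on Krt5 and Krt14. The call for imiquimod ended without vehicle replicate 2 or 3 or without any 1 of the 6 treated arrays. The difference was 0.13 without vehicle replicate 2 (adjusted p = 0.0870), 0.03 with quantile normalization repeated (adjusted p = 0.702) and -0.027 with cyclic loess normalization. The call was kept under 6 of 21 alternatives. The adjusted p over all alternatives ran from 0.00718 to 0.722, the lowest for a call in the other direction, -0.24 with centring on Krt5 and Krt14.

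Between the treatments none of these plaque genes was called as fitted. Anisomycin minus imiquimod was 0.05 for Pkp1 (95% confidence interval -0.16 to 0.26), -0.0042 for Jup (-0.23 to 0.22) and 0.09 for Dsp (-0.08 to 0.27). Dsp was called with cyclic loess normalization, at 0.16 (adjusted p = 0.0487), and its adjusted p over all alternatives ran from 0.0487 to 0.680. Of all 8 members 3 were called in this comparison, Dsc2 and Dsg3 higher and Dsg2 lower with anisomycin, where 20.4% of all genes tested were called, 10.8% higher and 9.59% lower. The arrays did not overlap for 6 members, 4 higher and 2 lower with anisomycin, beside 39.3% of all genes (21.4% and 17.9%). By the moderated F test over the 3 groups 7 of 8 members differed, all but Dsc3 (adjusted p = 0.0819), where 51.3% of all genes did.

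The promoters of Dsp and Jup are shown, taken from RefSeq's promoter table (GRCm38.p6). Those of the cadherin genes were left out by choice, and no entry for Pkp1 was at hand. The choice therefore does not follow from which members rose. Each line gives the 200 bases before the gene's outermost annotated start, 5′ to 3′ on the gene's strand. Dsp lies at chr13:38151094-38151293 on the plus strand and Jup at chr11:100397840-100398039 on the minus strand. Capitals mark matches on either strand to the GC box GGGCGG or the CCAAT box CCAAT.
Dsp: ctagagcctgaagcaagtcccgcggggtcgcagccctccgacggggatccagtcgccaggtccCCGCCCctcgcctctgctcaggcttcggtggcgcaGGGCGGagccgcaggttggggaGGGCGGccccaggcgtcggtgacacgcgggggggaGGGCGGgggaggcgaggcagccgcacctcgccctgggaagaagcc
Jup: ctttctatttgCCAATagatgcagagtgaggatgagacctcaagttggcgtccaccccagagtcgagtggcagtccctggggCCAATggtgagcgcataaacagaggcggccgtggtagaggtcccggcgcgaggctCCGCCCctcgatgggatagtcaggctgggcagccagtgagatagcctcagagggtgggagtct
Dsp held 4 GC boxes and Jup 1, and Jup held 2 CCAAT boxes, none of them overlapping. Of 32851 promoter windows of the same length, 31% held a GC box and 29.3% a CCAAT box. Those windows were placed by each table entry's own start and not by the gene's outermost annotated start, so their placing can differ. Neither window held a TATA box (TATAAA, in 9.96% of windows) or an AP-1 site (TGANTCA, in 5.48%), which says only that these letters were not found there.

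Vehicle replicate 2 had the lowest value of its group for all 8 members. Its mean over the members was 0.23 below the vehicle mean, while vehicle replicates 1 and 3 were 0.15 and 0.08 above it. Keratinocyte markers moved in the same way. The mean of 6 such markers in replicate 2 was 0.21 below the vehicle mean, and the markers of skeletal muscle were highest there, at 10.5 against 9.98 and 9.74. Without this array 7 members were still called for anisomycin and 6 for imiquimod, the one lost being Dsp.

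Keratinocyte markers also moved with treatment. Of 6, 3 were higher and 1 lower with anisomycin, beside 22.3% and 23.3% of all genes. With imiquimod 5 were higher and none was lower, beside 20.4% and 22.4%. The mean level of the 6 markers was 11.3 to 11.7 in vehicle arrays, 11.97 to 12.3 with anisomycin and 12.4 in the imiquimod arrays. All 6 skeletal muscle and all 5 adipocyte markers fell with both treatments, and all 7 neutrophil markers rose, beside the same shares of all genes. Muscle markers averaged 9.74 to 10.5 in vehicle arrays against 7.71 to 8.40 in treated arrays, and neutrophil markers 4.71 to 4.79 against 8.43 to 9.07.

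The members were therefore also set against the basal keratins Krt5 and Krt14 of the same arrays, a scaling chosen after seeing the data. The mean of these keratins was 0.45 to 0.49 above vehicle in all treated arrays, but the keratins moved unequally. Krt14 rose by 0.80 with anisomycin and 0.67 with imiquimod, and Krt5 was at 0.14, not called, and 0.25, called, so this scaling is set mostly by Krt14. On that scale Dsc2 was 3.67 higher than vehicle with anisomycin and 1.78 with imiquimod, Dsg3 1.78 and 1.30, and Dsg1b 0.28 and 0.64, all called. Dsg2 was lower by more, at -1.58 and -1.21. Pkp1 stood at 0.0046 with anisomycin and -0.034 with imiquimod, Jup at 0.0043 and 0.02, and none of these was called. Dsp turned to -0.16 with anisomycin, not called, and to -0.24 with imiquimod, called, and Dsc3 was called lower in both, at -0.21 and -0.49. How much of the rise of the plaque genes goes with the amount of epidermis in the sample was not tested beyond these values.

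**Figure D3:**
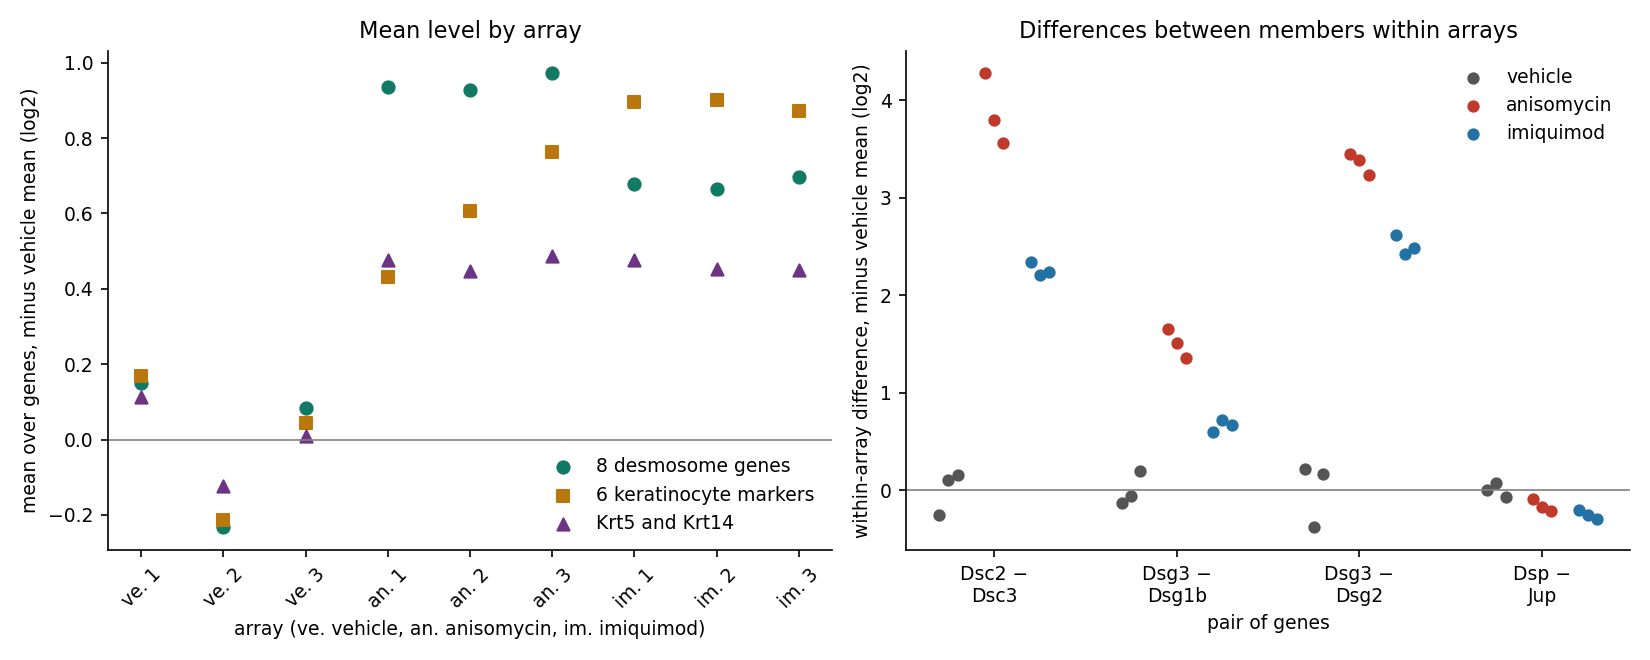
Left, the mean of the 8 desmosome genes, of 6 keratinocyte markers and of Krt5 and Krt14 in each array, as log2 differences from the vehicle mean. Right, differences between pairs of members within each array, as log2 differences from the vehicle mean of that pair. Vehicle replicate 2 is lowest in all series on the left, and Dsc2 minus Dsc3 on the right lies between 3.56 and 4.27 with anisomycin and between 2.21 and 2.34 with imiquimod.

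The desmosomal cadherin genes lie side by side in 1 cluster, in the order Dsc3, Dsc2, Dsc1, Dsg1c, Dsg1a, Dsg1b, Dsg4, Dsg3 and Dsg2 by RefSeq. Neighbours in this order differed in size or direction. With anisomycin Dsc3 differed by 0.26 beside 4.14 for Dsc2, and at the other end Dsg3 rose by 2.25 beside a fall of Dsg2 by 1.10. Dsg1c, a further desmoglein 1 copy, rose by 0.46 with anisomycin (adjusted p = 0.0034), was at -0.12 with imiquimod (adjusted p = 0.368), and was higher with anisomycin by 0.59 (adjusted p = 0.00365). It was dim, at 4.14 to 4.94 over the 9 arrays. The hair desmoglein Dsg4 was called lower with both treatments by small amounts, -0.13 and -0.14. It was dim too, at 4.45 to 4.64 over the 9 arrays.

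Of 6 other desmosome proteins, 3 rose and 1 fell with anisomycin and 2 rose and 1 fell with imiquimod. Thus 66.7% and 50% were called, beside 45.6% and 42.7% of all genes. The fall was that of the dim Dsg4 in both, and 1 of the 3 rises with anisomycin was that of the dim Dsg1c. The plakophilins Pkp3 and Pkp4 rose with both. Pkp3, the plakophilin found through all living epidermal layers, read 8.52, 8.34 and 8.48 in vehicle arrays against 9.09 to 9.19 with anisomycin and 9.09 to 9.20 with imiquimod. It rose by 0.68 (adjusted p = 2.47e-05) and 0.69 (adjusted p = 3.03e-05), and Pkp4 rose by 0.58 and 0.64. Pkp2, the plakophilin of heart, was at -0.04 and 0.07, and Perp, a desmosomal membrane protein, at 0.15 and 0.16, none of them called. Pkp2 was dim as well, at 4.98 to 5.25 over all arrays, so its lack of a call says little.

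The plakins and linkers that join desmosomal filaments to the cornified envelope were uneven. Of 4 measured, 1 rose and 2 fell with anisomycin, beside 22.3% and 23.3% of all genes. With imiquimod 1 rose and none fell, which is 25% called beside 42.7% of all genes. Kazn was called lower with anisomycin, at -0.32 (adjusted p = 0.0179). Envoplakin (Evpl) rose by 0.36 with anisomycin and 0.72 with imiquimod. Periplakin (Ppl) fell by 0.56 with anisomycin and was at -0.07 with imiquimod, and the treatments differed for both genes (adjusted p = 0.0098 and 0.0154). All 7 genes of corneodesmosomes and their shedding rose with both treatments, where 22.3% of all genes were called higher with anisomycin and 20.4% with imiquimod. Corneodesmosin (Cdsn), which coats the desmosomes of the cornified layer, rose by 1.04 and 0.89. Kallikreins, proteases of which several cut corneodesmosomes, rose by up to 6.23 and 5.66 (Klk6), and Klk14 rose by 4.15 and 2.71. The kallikrein inhibitor gene Spink5 rose by 1.33 and 0.71. Klk14 and Spink5 were the 2 genes of this list called higher with anisomycin than with imiquimod, by 1.44 and 0.61.

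Keratins, the filaments that desmoplakin holds, included the largest rises of any list here. With anisomycin 6 of 8 rose and 1 fell, beside 22.3% and 23.3% of all genes, and with imiquimod 7 of 8 rose, beside 20.4%. Krt6b rose by 7.85 and 7.71, while Krt10 fell by 0.69 with anisomycin and was at -0.06 with imiquimod.

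The other junctions of the epidermis gave the following counts, to be read beside the 22.3% of all genes called higher and 23.3% lower with anisomycin, and the 20.4% and 22.4% with imiquimod. In the adherens junction 8 of 10 genes rose with anisomycin and 6 with imiquimod, and none fell. P-cadherin (Cdh3) rose by 1.61 and 1.62 and E-cadherin (Cdh1) by 0.61 and 0.35. Of 9 tight junction genes 5 rose and 3 fell with anisomycin and 2 rose and 3 fell with imiquimod, the last being 55.6% called where 42.7% of all genes were. The claudin Cldn4 was at 2.07 with anisomycin and at 0.45, not called, with imiquimod, a difference of 1.63 between treatments (adjusted p = 0.00045). Of 4 gap junction genes 3 rose and 1 fell with anisomycin, and 3 rose and none fell with imiquimod. Gjb2 rose by 4.37 and 4.66, and the fall with anisomycin was -1.12. Of 8 hemidesmosome and basement membrane genes 4 rose and 3 fell with anisomycin, and 2 rose and 4 fell with imiquimod. Whether the desmosome genes differ from these lists as a group was not tested.

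**Figure D4:**
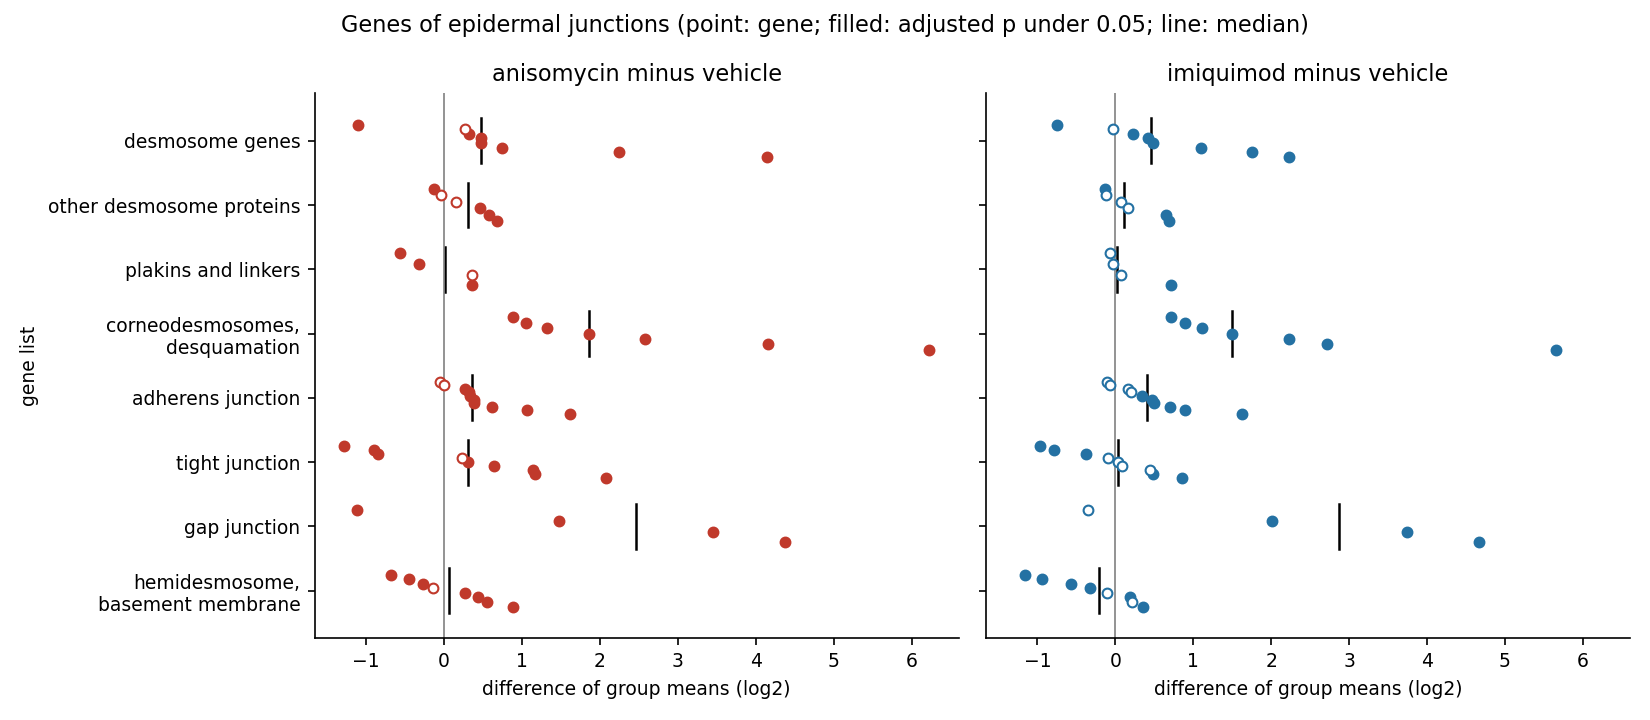
Differences from vehicle (log2) for each gene of the desmosome and of 7 further lists of epidermal junction genes, with anisomycin on the left and imiquimod on the right. Each point is a gene, filled where the adjusted p was under 0.05, and the black line is the list's median, 0.47 and 0.45 for the desmosome genes. Corneodesmosome genes lie wholly above 0, while every other list shown has genes on both sides.

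The genes most like each member were found by the root mean square difference of values centred on each gene's mean, over the 9 arrays. For Dsc2 they were the growth factor gene Nrg1 (0.26 log2 units) and the kallikrein Klk14 (0.31). For Dsg3 they were the hyaluronan receptor Cd44 (0.09) and the tubulin Tuba8 (0.10). Nearest to Dsg1b were the protease inhibitor Spint1 (0.08) and the sodium channel subunit Scnn1a (0.09), and nearest to Dsc3 were Ly6d (0.04) and Leng9 (0.07). Dsg2 was closest to Sh3d19 and Ivns1abp (0.06 each). Pkp1 was closest to Mrpl57 (0.03) and Emc4 (0.04), Jup to Snap29 (0.03) and Ap3m1 (0.04), and Dsp to Mea1 and Atxn7l3b (0.03 each). For comparison, a member's own root mean square distance from its mean was 1.70 for Dsc2 and 0.15 for Dsp, so a small value says less for Dsp. The arrays fall into 3 groups, so this likeness mostly compares 3 group means.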

How the data were processed

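The 9 arrays were measured on ear skin RNA in 3 groups of 3. The authors deposited 1 table of log2 expression values made with RMA, per the submitters' processing notes. The software version, the genome build and whether all arrays were normalized together were not stated in what was used here. The log2 scale was judged from the range of 2.39 to 13.97. Array medians were 6.01 to 6.10.

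Of 35556 rows, 21789 carry 1 gene symbol, and the row with the highest mean per symbol was kept. A linear model with 1 coefficient for each group was fitted to the 9 arrays together (limma 3.58.1, R 4.3.3), without filter or covariates, giving 6 residual and 3.16 prior degrees of freedom. Tests were two-sided, and intervals are 95%. The smallest two-sided p of an exact permutation test with 3 arrays a group is 0.1. The number of arrays limits the precision, and signal over background was not tested.

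The members and gene lists were chosen with earlier results of these data known. Of 67 places on 9 context lists 62 were measured. Named genes are all members, the up to 3 called genes of each context list with the largest difference in any of the 3 comparisons, and the 2 genes most like each member. Cdsn, Pkp2, Perp, Krt5, Krt14 and Trp63 lie outside this rule and were chosen after their values were seen. The fit was tested on simulated data with independent genes of which few were changed. Many genes were called here, so that test does not cover the setting of these data. Alternatives were another variance prior, a filter on dim genes, 4 other scalings, mean of probe sets, all rows, array weights, a replicate block, leaving out each array, fitting 2 groups, and centring on Krt5 and Krt14, added after seeing the data.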

Additional observations from a re-analysis of the deposited data

How the results depend on the processing

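The calls of Dsc2, Dsg2, Dsg3 and Dsg1b against vehicle kept their direction and stayed called under all 21 alternatives. None of these alternatives took Dsg1b from the probe set it shares with Dsg1a and Dsg1c. That probe set was at -0.24 with anisomycin and 0.01 with imiquimod, not called. The number of members called was 5 to 8 for anisomycin and 6 or 7 for imiquimod over these alternatives, beside 7 each. Between the treatments it was 3, and became 5 with cyclic loess, with array weights, with only the 2 groups fitted and with arrays centred on Krt5 and Krt14. Leaving out 1 array at a time gave 2 to 5, the 5 without vehicle replicate 2. By the F test 6 to 8 members were called, beside 7. Signs turned for Dsp with imiquimod, at -0.027 with cyclic loess, and with centring on Krt5 and Krt14 for Dsp (-0.16 and -0.24), Dsc3 with anisomycin (-0.21) and Pkp1 with imiquimod (-0.034). Dsc3 with imiquimod, uncalled at -0.03, was above 0 with median centring (0.04) and without vehicle replicate 1, vehicle replicate 3 or imiquimod replicate 1 (0.01 to 0.07). With cyclic loess Dsp with anisomycin stood at 0.14, no longer called, Pkp1 with imiquimod at 0.21, and Jup at 0.30 and 0.23, still called. The cause was not tested. Centring on these keratins moves the median of all genes by -0.47 with anisomycin and -0.46 with imiquimod.

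The replicate block gave 7, 7 and 3 members called in the 3 comparisons and changed no call. Same-numbered arrays had deviations correlated at -0.20 to 0.20, and differently numbered arrays at -0.24 to 0.25. With ranges so alike, these values cannot tell whether same-numbered samples shared an animal, litter or day. Array weights called 8557 genes between treatments in place of 4059, and leaving out any 1 treated array but anisomycin replicate 3 called 2523 to 2589. Among called genes, those higher made up 49% for anisomycin and 47.7% for imiquimod, against 61.5% and 58.1% with arrays centred on medians and 37.1% and 36.4% on stable genes.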

Other observations

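Among 6 measured transcription regulators of epidermal differentiation, 4 were higher with each treatment and none was lower, where 22.3% of all genes were called higher with anisomycin and 20.4% with imiquimod. Zfp750 rose by 1.43 with anisomycin and 1.12 with imiquimod, Ovol1 by 1.27 and 1.14, and Grhl3 by 1.06 and 1.45. Trp63, which encodes the master regulator p63 of stratified epithelia, was at -0.11 and -0.05 and was not called. Between the treatments 0 of the 6 were called by limma, and 1, Grhl3, had an unadjusted p under 0.05 (adjusted p = 0.113).

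Laminin genes, whose product anchors hemidesmosomes to the basement membrane, differed between the treatments. Lamb3 rose by 0.88 with anisomycin and was at -0.11 with imiquimod, a difference of 0.99 (adjusted p = 0.000125). Lama3 was at -0.14 with anisomycin and fell by 0.94 with imiquimod, a difference of 0.81 (adjusted p = 0.0105).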
